A study of Danio rerio with 3 samples.

Results

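The genes described here are a set of 6 zebrafish genes labelled as genes of resting double-positive thymocytes: the cell-cycle and growth brakes cdkn1d, gadd45ga and mxd1, the signalling brakes cyldb and rasa4, and the RNA-binding protein gene arpp21. They are 6 of the 31903 features in the deposited matrices, listed there as cdkn1d (ENSDARG00000099719), gadd45ga (ENSDARG00000019417), mxd1 (ENSDARG00000032039), cyldb (ENSDARG00000089724), rasa4 (ENSDARG00000029372) and arpp21 (ENSDARG00000061081). The genes were chosen by measured values of these same libraries, namely the level per library and the level in thymus cells split by mki67 and top2a and by rag1. Those values are therefore a description of how the genes were chosen, and nothing is read from them as independent evidence.

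In vertebrate thymus, T cell precursors divide rapidly, stop dividing, and then rearrange the T cell receptor alpha genes with the recombinase made by rag1 and rag2 while carrying both CD4 and CD8. These double-positive cells are mostly small and non-dividing and wait for a receptor signal. Brakes of several kinds are known from mammals. Inhibitors of the p21, p27 and p57 family block cyclin-dependent kinases, GADD45 proteins act in stress-induced growth arrest, MXD1 pairs with MAX and opposes MYC, CYLD removes ubiquitin chains and dampens NF-kB signalling, RASA4 is a calcium-responsive activator of the Ras GTPase that turns Ras off, and ARPP21 is an RNA-binding phosphoprotein known as TARPP in mouse thymocytes.

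All fish were of the lck:GFP line, whose green fluorescent protein is made under control of lck, a kinase gene of T cells. Lymphocytes were sorted as GFP-high cells from thymus and as GFP-low cells from kidney marrow, the blood-forming organ of fish, and from scale. Each tissue gave 1 droplet library, and the number and age of the fish are not given in the sources used here. After quality filters the thymus held 4574 cells and 12405147 unique molecular identifier counts (UMIs), the marrow 983 cells and 4987653 UMIs, and the scale 375 cells and 1279044 UMIs. The libraries shared 0 cell barcodes. Tissue, sort gate and library cannot be told apart, nor can fewer cells of a type and less RNA per cell in a library sum, and no p-value is given, since cells of 1 library are not replicates. The intervals below are 95% intervals of counting error alone. T cell markers were present in the thymus library, with cd4-1 at 641, cd8a at 285 and cd8b at 922 UMIs per 1000000 UMIs of the library (CPM). The transgene's gfp transcript was at 1302 CPM in thymus, 76.0 in marrow and 94.6 in scale.

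Among the growth brakes, cdkn1d stood at 73.8 CPM in thymus, 11.8 in marrow and 12.5 in scale. The thymus level was 6.24 times the marrow level (interval 4.79 to 8.26) and 5.90 times the scale level (3.61 to 10.4). The growth-arrest gene gadd45ga was at 133 CPM in thymus, 39.9 in marrow and 49.3 in scale, a ratio of 3.34 over marrow (2.88 to 3.89) and of 2.71 over scale (2.103 to 3.54). These 2 genes were thus higher in thymus and had UMIs in all 3 tissues. Their marrow levels were close to those of near-empty marrow droplets, which are given below. The MYC antagonist mxd1 was at 75.1 CPM in thymus, with 9 UMIs in marrow (1.80 CPM) and 3 in scale (2.35 CPM). Its thymus level was 41.6 times that in marrow (21.8 to 91.3).

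The signalling brakes and arpp21 were nearly all thymic. The deubiquitinase gene cyldb had 2336 UMIs in thymus (188 CPM), 1 in marrow and 3 in scale, and its thymus to marrow ratio of 939 has an interval from 168 to 37113. The Ras brake rasa4 had 2759 UMIs in thymus (222 CPM), 3 in marrow and 0 in scale, where 0 UMIs allow up to 2.35 CPM. Its ratio over marrow was 370 (126 to 1794), and over scale it was at least 94.8. A single marrow cell held 2 of the 3 rasa4 UMIs there, and without that cell the ratio over marrow was 1106. The RNA-binding arpp21 was at 525 CPM in thymus, 3.81 in marrow and 3.91 in scale, a ratio of 138 over marrow (88.2 to 229). With at least 2-fold taken as called, on UMIs plus 3, all 6 genes were called higher in thymus than in marrow, where 25.9% of the 6129 genes compared were called, and all 6 were called against scale, where 24.0% of 5439 were called. None was called lower, where 6.95% of genes were against marrow and 9.74% against scale. The median log2 ratio was 5.93 for the 6 genes and 0.53 for all genes against marrow, and 4.67 and 0.32 against scale. These contrasts served to choose the set, so the counts describe the choice.

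**Figure D1:**
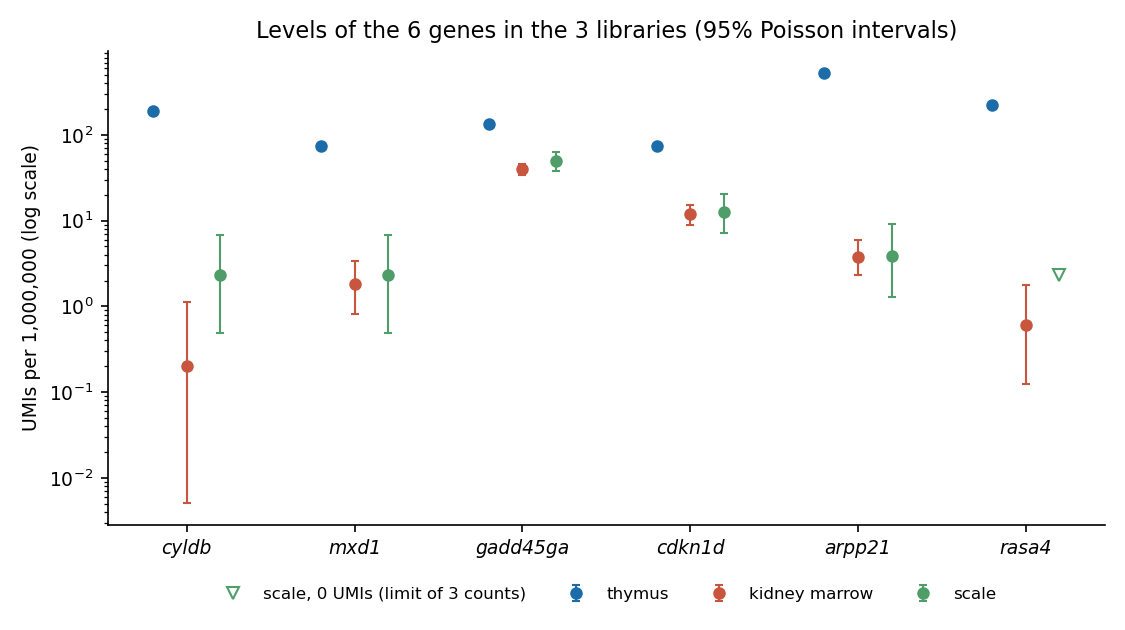
Level of each of the 6 genes in the 3 libraries, in CPM on a log axis, with 95% Poisson intervals; the open triangle is the limit that 0 UMIs allow. The thymus point lies above the other libraries for every gene, by 3.34-fold over marrow for gadd45ga and by far more for cyldb, rasa4 and arpp21.

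After each cell was thinned to 1000 UMIs at random, so that cells could be compared at equal depth, arpp21 was detected in 42.4% of 3230 thymus cells (interval 40.7 to 44.1) and rasa4 in 24.9%. Detection was 20.7% for cyldb, 16.9% for gadd45ga, 10.5% for mxd1 and 10.1% for cdkn1d. In 983 marrow cells the thinned shares were 4.88% for gadd45ga, 1.42% for cdkn1d and 0.305% for arpp21, and the other 3 genes had 0 cells, which allows a share of up to 0.305% each. In 339 scale cells gadd45ga reached 5.31% and cdkn1d 1.18%. The thymus shares thus stood above those of the peripheral libraries for each gene.

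Free RNA can put UMIs into cells that do not express a gene, so cells with at least 5% of their UMIs on erythroid genes were read as a background. The thymus held 10 such cells (median 1194 UMIs) and 4564 others (median 1371). Before thinning, arpp21 was detected in 4 of the 10 (40.0%, interval 12.2 to 73.8) and in 60.2% of the others, rasa4 in 2 of the 10 (20%) and in 39.6% of the others, and gadd45ga in 1 of the 10. No UMI of cyldb, mxd1 or cdkn1d was found in these 10 cells, which allows up to 240 CPM. That limit lies above their levels in the other cells, 188.5 CPM for cyldb, 75.2 for mxd1 and 73.8 for cdkn1d. The 10 cells therefore cannot show whether the background of those 3 genes was low. The erythroid-gate level of arpp21, 481 CPM, has an interval from 176 to 1047 that includes the level of the other cells.

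The residual marrow levels of gadd45ga, cdkn1d and arpp21 were close to those of near-empty droplets. Marrow barcodes with under 100 UMIs, which hold mostly free RNA, gave 39.7 CPM of gadd45ga (33.7 to 46.5) against 39.9 in the called cells. The same barcodes gave 9.74 CPM of cdkn1d against 11.8 in cells, and 3.33 CPM of arpp21 against 3.81. For the scarcer genes these barcodes held 2 UMIs of mxd1 (0.513 CPM, against 1.80 in cells), 5 of rasa4 (1.28 against 0.60) and 1 of cyldb (0.256 against 0.20). The intervals of all 6 genes overlap between the barcodes and the cells. No share of free RNA in the called cells was estimated. A like level in the barcodes and the cells therefore cannot tell expression from free RNA, and neither is read from it. Before thinning, gadd45ga had 0 UMIs in the 13 erythroid-gate and the 11 neutrophil-gate marrow cells, which allows up to 28.1 and 16.8 CPM. It was at 42.3 CPM in the remaining 959 cells. Its marrow UMIs were thus not spread alike over these cells. In scale, also before thinning, the 18 cells with cd8a or cd8b UMIs and no cd4-1 UMI had gadd45ga at 144 CPM (9 UMIs in 8 cells, interval 65.9 to 274). The 325 cells with neither coreceptor were at 42.0 CPM (30.9 to 55.9). The 32 scale cells with cd4-1 UMIs alone were at 71.6 CPM (7 UMIs, 28.8 to 148). In marrow the 70 cells with cd8a or cd8b UMIs alone were at 43.9 CPM (22.7 to 76.7). The 1 marrow cell with rag1 UMIs held 7 of them among 5898 UMIs, with 1 UMI of cdkn1d, 1 of rag2 and none of the other 5 genes.

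The thymus cells were then split by the dividing-cell genes mki67 and top2a, which encode the Ki-67 antigen and topoisomerase 2 alpha. Of the 3230 thinned cells, 2423 had no UMI of either gene, 490 had 1 to 2 and 317 had 3 or more. All 6 levels were highest in cells with none and lowest in cells with 3 or more. From the first to the last of these classes, cdkn1d went from 129 through 77.6 to 22.1 CPM, mxd1 from 130 through 85.7 to 25.2, and gadd45ga from 227 through 139 to 82.0. The ratio of the outer classes was 5.85 for cdkn1d (2.81 to 14.7), 5.17 for mxd1 (2.59 to 12.1) and 2.77 for gadd45ga (1.87 to 4.28). The dividing cells held only 7 thinned UMIs of cdkn1d and 8 of mxd1, so these sizes depend on the draw. With another random draw the ratio was 3.84 for cdkn1d and 2.64 for mxd1, and after thinning to 2000 UMIs it was 2.29 and 2.15.

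Among the signalling brakes, cyldb went from 317 through 214 to 117 CPM, a ratio of 2.71 (1.95 to 3.88). With another draw the cyldb ratio was 4.03, and after thinning to 500 UMIs it was 7.28 (3.11 to 22.5). The Ras brake rasa4 went from 333 through 255 to 186 CPM, a ratio of 1.79 (1.37 to 2.37), and arpp21 from 716 through 602 to 432, a ratio of 1.66 (1.39 to 1.99). Another draw gave 1.38 for arpp21 and 1.55 for rasa4. For rag1 the levels were 4754 and 3022 CPM, a ratio of 1.57 (1.47 to 1.68), whose interval overlaps those of arpp21 and rasa4. Of the 6 genes 4, all but arpp21 and rasa4, were called 2-fold higher in cells with no mki67 or top2a UMI, where 9.13% of 2837 genes were called. None was called lower, where 8.74% were. The median log2 ratio was 1.33 for the 6 genes and 0.03 for all. This contrast too was used to choose the set.

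Within cells that held a rag1 UMI the same order was seen, with outer ratios of 5.66 for cdkn1d, 5.08 for mxd1, 2.90 for gadd45ga, 2.80 for cyldb, 1.93 for rasa4 and 1.85 for arpp21. There, 4 of the 6 genes were called higher and 0 lower, against 10.1% and 8.97% of 2240 genes. In the 800 cells without a rag1 UMI the counts were low: the dividing class there, 64 cells, had 2 UMIs of cyldb, 2 of gadd45ga and none of mxd1 or cdkn1d. In these cells arpp21 was 180 CPM with no mki67 or top2a UMI and 234 with 3 or more, a ratio of 0.77 with an interval from 0.447 to 1.42. So the fall of arpp21 with division was resolved in the rag1-positive cells and was not detectable in the others.

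**Figure D2:**
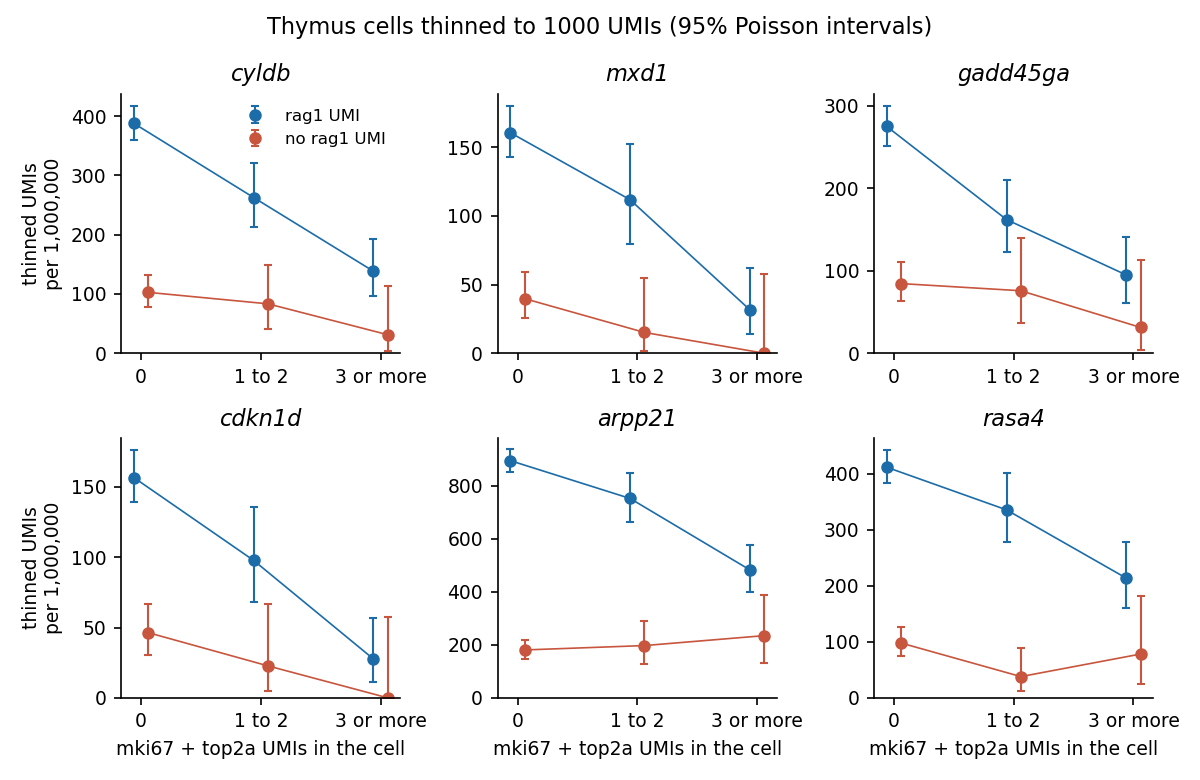
Level of each gene in thinned thymus cells (CPM of thinned UMIs, 95% Poisson intervals) by the cell's mki67 and top2a UMIs, for cells with a rag1 UMI (blue) and with none (red). Blue points fall from left to right in all 6 panels, for cyldb from 388 to 138 CPM; they lie above the red points except that in the class of 3 or more the red level of mxd1 and cdkn1d is 0 UMIs, which allows 46.9 CPM, more than the blue levels of 31.6 and 27.7.

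A further split shows that the absence of mki67 and top2a does not by itself mark the cells with high levels. Among the 2423 cells without those UMIs, 215 had 3 or more UMIs of S phase genes such as pcna, the replication clamp. Before thinning their median depth was 6424 UMIs, and that of the cells with no S phase UMI was 1669. In the 215 cells cyldb was at 60.5 CPM, against 340 in the 1648 cells with no S phase UMI, a ratio of 5.62 (3.26 to 10.6). For cdkn1d the values were 37.2 and 138 CPM, for mxd1 27.9 and 127, for gadd45ga 74.4 and 249, for rasa4 158 and 348, and for arpp21 349 and 746. The 560 cells with 1 to 2 S phase UMIs were at 346 CPM of cyldb and 770 of arpp21, levels whose intervals overlap those of cells with none. Low levels of the 6 genes were thus seen in the deep cells with 3 or more S phase UMIs and not in those with 1 to 2.

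Depth moved with these classes. The median cell had 1742 UMIs before thinning with no mki67 or top2a UMI, 3726.5 with 1 to 2 and 6128 with 3 or more. Unthinned cyldb levels fell from 536 CPM in cells of 500 to under 1000 UMIs through 401 and 220 to 59.1 in cells of 4000 or more, and mxd1 from 173 to 24.2. In a split chosen after the depths had been seen, cells of 4000 or more UMIs with no mki67 or top2a UMI and with 3 or more did not differ beyond counting error. Their cyldb levels were 81.6 and 104 CPM, a ratio of 0.784 (0.441 to 1.40), that of arpp21 was 0.940 (0.716 to 1.24), and that of rasa4 was 1.00 (0.636 to 1.59). For gadd45ga it was 1.07, for mxd1 1.22 and for cdkn1d 2.45 (0.769 to 10.2). In that depth range 42.9% of the cells without mki67 or top2a UMIs had 3 or more S phase UMIs. Of the cells with 3 or more mki67 or top2a UMIs, 51.7% did.

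Among the cells of under 4000 UMIs the dividing class held only 77 cells. There the ratio was 2.28 for cyldb (1.30 to 4.43), 3.69 for cdkn1d (1.25 to 18.0), 1.45 for arpp21 (1.06 to 2.03), 1.78 for gadd45ga (0.985 to 3.58) and 1.17 for rasa4 (0.779 to 1.83), and for mxd1 it was at least 3.73 against 0 UMIs. S phase cells were then set aside on the non-dividing side only, among rag1-positive cells of 4000 or more UMIs. Depth within that range was not matched. Cells with no S phase, mki67 or top2a UMI exceeded the dividing cells beyond counting error for 3 genes. The ratio was 1.79 for arpp21 (1.29 to 2.49), 1.87 for rasa4 (1.08 to 3.24) and 4.84 for cdkn1d (1.35 to 21.5). For rag1 it was 1.62 (1.43 to 1.83), an interval that overlaps those of these 3 genes. For cyldb this ratio was 1.496 (0.739 to 2.96), for gadd45ga 1.82 (0.738 to 4.40) and for mxd1 2.15 (0.704 to 6.58), all with intervals that reach below 1. The size of the gap between non-dividing and dividing cells thus depended on which depths and which S phase cells were compared. The part of RNA content per cell in it was not tested.

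**Figure D3:**
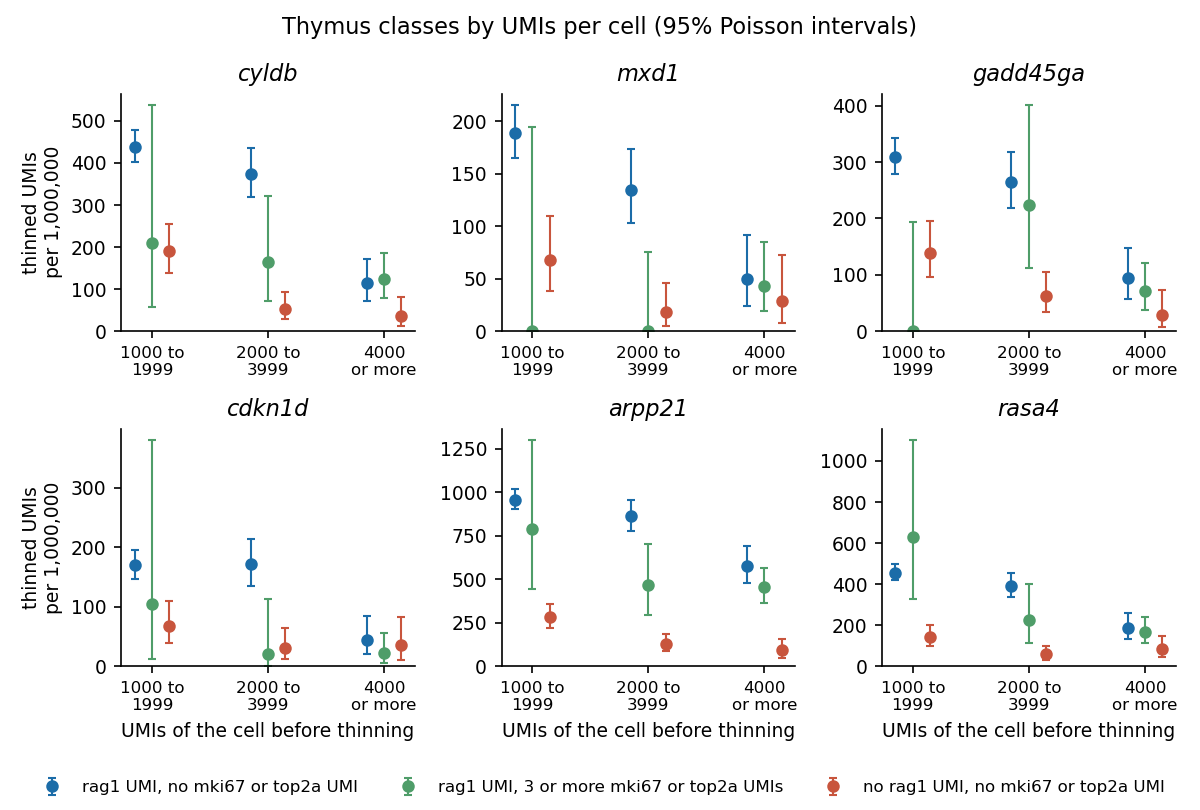
Level of each gene (CPM of thinned UMIs, 95% Poisson intervals) in 3 classes of thymus cells, by the UMIs of the cell before thinning. In cells of 4000 or more UMIs the intervals of the non-dividing (blue) and dividing (green) rag1-positive cells overlap for all 6 genes. The blue point is below the green one for cyldb only, at 114 and 124 CPM. For cdkn1d the points are at 44.8 and 21.6 CPM and for arpp21 at 577 and 454.

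The split by rag1, which makes the recombinase of T cell receptor rearrangement, gave gaps that were more alike between the genes. The 2430 cells with a rag1 UMI had cyldb at 343 CPM, against 93.8 in the 800 cells without, a ratio of 3.66 (2.89 to 4.70). The ratio was 4.43 for arpp21 (830 over 188 CPM), 4.40 for rasa4 (379 over 86.3), 4.31 for mxd1 (140 over 32.5), 3.47 for cdkn1d (135 over 38.8) and 3.04 for gadd45ga (240 over 78.8). All 6 were called 2-fold higher and 0 lower, where 6.08% and 3.56% of 3256 genes were called. The median log2 ratio was 1.89 for the 6 genes and 0.04 for all genes, and this contrast also served to choose the set. The size for mxd1 rests on 26 UMIs in the cells without rag1, and it was 9.19 with another draw and 21.9 (7.40 to 107) after thinning to 2000 UMIs, where that of cyldb was 8.18. Thinning to 500 UMIs brought the 6 ratios to between 2.08 for gadd45ga and 2.90 for mxd1. As in the split by division, the cells with higher levels were the shallower ones, with a median of 1798.5 UMIs with rag1 and 2808 without. Among cells of under 4000 UMIs the ratios were 3.33 for cyldb, 3.91 for mxd1, 2.92 for gadd45ga, 3.24 for cdkn1d, 4.31 for arpp21 and 4.36 for rasa4. Among cells of 4000 or more they were 2.66 for cyldb, 3.66 for arpp21 and 2.96 for rasa4, and the intervals for gadd45ga (1.70, 0.872 to 3.57) and cdkn1d (2.09, 0.762 to 7.14) reached below 1.

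Levels followed the number of rag1 UMIs in the cell. Across cells with 0, 1 to 2, 3 to 5, 6 to 9 and 10 or more rag1 UMIs, arpp21 was at 188, 509, 743, 1010 and 1208 CPM and rasa4 at 86.3, 224, 356, 421 and 592 CPM. For cyldb the values were 93.8, 190, 334, 411 and 499 CPM. Levels of gadd45ga and cdkn1d flattened, with 305 and 314 CPM of gadd45ga and 163 and 170 CPM of cdkn1d in the last pair of bins. The level of mxd1 was at 161 CPM with 3 to 5 rag1 UMIs, 130 with 6 to 9 and 219 with 10 or more, and the intervals of the first pair overlap. Median depth fell over these bins from 2808 to 1445 UMIs. When cells were split by rag2, the partner of rag1 with 351 positive cells, the 6 ratios lay between 1.24 and 1.67. A rag2 UMI was found in 10.9% of the thinned thymus cells and a rag1 UMI in 75.2%. Most cells without a rag2 UMI therefore held a rag1 UMI, and this split cannot show whether the genes follow rag2.

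Markers of other cell types moved with the rag1 split. The erythroid list summed to 1720 CPM in rag1-negative and 380 in rag1-positive cells, with gata1a and hbbe1.1 at 0 in both. The macrophage or dendritic list, mostly cd74a and cd74b, summed to 2226 and 501 CPM, with csf1ra at 0 in both. The summed thymic stroma list was at 160 and 57.6 CPM, with aire and dlx3b at 0 in both, and the neutrophil or granulocyte list, mostly srgn, at 251 and 51.4, with lyz and mpx at 0. Other genes of these lists went against the sums. The stroma genes foxn1, pdgfra and psmb11a were at 0 in rag1-negative cells only, where ccl25a, cxcl12a and ccl25b made up the sum. The neutrophil genes adam8a, lect2l and mmp9 were also at 0 in rag1-negative cells only. By division the erythroid list was at 789 CPM in cells with no mki67 or top2a UMI and 28.4 in cells with 3 or more, and the thymic stroma list at 109 and 0. Without cells in the erythroid and neutrophil gates the rag1 ratio was 3.65 for cyldb and 4.40 for arpp21, and the division ratio 2.72 for cyldb. The part of the remaining cell types in these results was not tested.

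The label calls these cells double-positive, which the rule did not use, although the same cells enter. Of the thinned thymus cells 1291 held UMIs of both cd4-1 and of cd8a or cd8b, 767 of cd8 alone, 295 of cd4-1 alone and 877 of neither. All 6 genes were highest in cells with both and lowest in cells with neither. For rag1, which served to choose the genes, the levels with both and with neither were 6967 and 1480 CPM, a ratio of 4.71. This split is therefore not independent of the choice. The level in cells with both against neither was 181 and 18.2 CPM for mxd1, a ratio of 9.94 (5.99 to 17.7), and 434 and 86.7 CPM for cyldb, a ratio of 5.01 (3.93 to 6.45). It was 465 and 103 for rasa4 (4.53), 300 and 82.1 for gadd45ga (3.65), 161 and 45.6 for cdkn1d (3.53) and 974 and 308 for arpp21 (3.16, 2.77 to 3.62). All 6 were called higher and 0 lower, where 11.6% and 8.04% of 2326 genes were called, the median log2 ratio being 1.98 for the 6 and 0.11 for all genes, and mxd1 ranked as number 5 from the highest. After thinning to 2000 UMIs the ratio was 23.3 for mxd1, 10.8 for cyldb and 7.11 for cdkn1d, and after thinning to 500 UMIs it was 3.60, 2.69 and 1.96. The median depth was 1493 UMIs with both coreceptors and 4266 with neither. Within depth ranges the 6 ratios lay between 2.81 and 9.46 at 4000 or more UMIs and between 2.16 and 7.21 below. In both ranges the intervals of gadd45ga and cdkn1d reached below 2. At 4000 or more UMIs they were 1.67 to 7.28 and 1.68 to 16.0, and the 9.46 of mxd1 (3.10 to 34.3) rests on 12 and 5 UMIs. The erythroid list was at 209 CPM with both and 1529 with neither, with gata1a and hbbe1.1 at 0 in both classes. The macrophage or dendritic list was at 352 and 1998.9 CPM, with csf1ra at 0 in both, the thymic stroma list at 23.2 and 219, with aire and dlx3b at 0 in both, and the neutrophil or granulocyte list at 44.2 and 169, with lyz and mpx at 0 in both. Of the stroma and neutrophil lists, foxn1, adam8a and mmp9 were at 0 only in cells with neither coreceptor. In cells with both, pdgfra and lect2l were at 0 instead. S phase genes summed to 702 CPM with both and 2538 with neither, and G2/M genes to 792 and 1854. The part of these in the gap was not tested.

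The comparison was repeated within a narrower class. Among rag1-positive cells with no mki67 or top2a UMI, 1018 cells with both coreceptors exceeded 239 cells with neither by 6.64 for mxd1 (3.16 to 16.7), 3.43 for cyldb (2.40 to 5.08), 3.38 for rasa4 (2.40 to 4.91), 2.51 for gadd45ga (1.74 to 3.76), 2.101 for arpp21 (1.73 to 2.57) and 1.91 for cdkn1d (1.22 to 3.13). Of the 6 genes 5 were called higher, all but cdkn1d, and 0 lower, where 8.23% and 4.73% of 1373 genes were called. Cells with cd8 UMIs alone were close to cells with both, the ratios lying between 1.09 for cdkn1d and 1.31 for rasa4, and those for mxd1 and cdkn1d did not differ beyond counting error. The 141 cells with cd4-1 UMIs alone lay between those with neither and those with both for each gene. For cyldb they were at 333 CPM, against 134 with neither and 460 with both, and for cdkn1d at 113, against 92.1 and 176. The cells with both and with neither coreceptor differed in more than the coreceptors. S phase genes summed to 440 CPM with both and 1987 with neither, and G2/M genes to 201 and 531, so that division was not held equal by the absence of mki67 and top2a UMIs. The macrophage or dendritic list was at 239 and 1707 CPM, with UMIs of 10 and 7 of its 15 genes, the thymic stroma list at 28.5 and 280, the neutrophil or granulocyte list at 46.2 and 62.8, and the erythroid list at 239 and 58.6. The median depth was 1444 UMIs with both and 3375 with neither. The part of these differences in the gap was not tested. A cell with no cd4-1 UMI among 1000 is not shown to lack cd4-1.

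**Figure D4:**
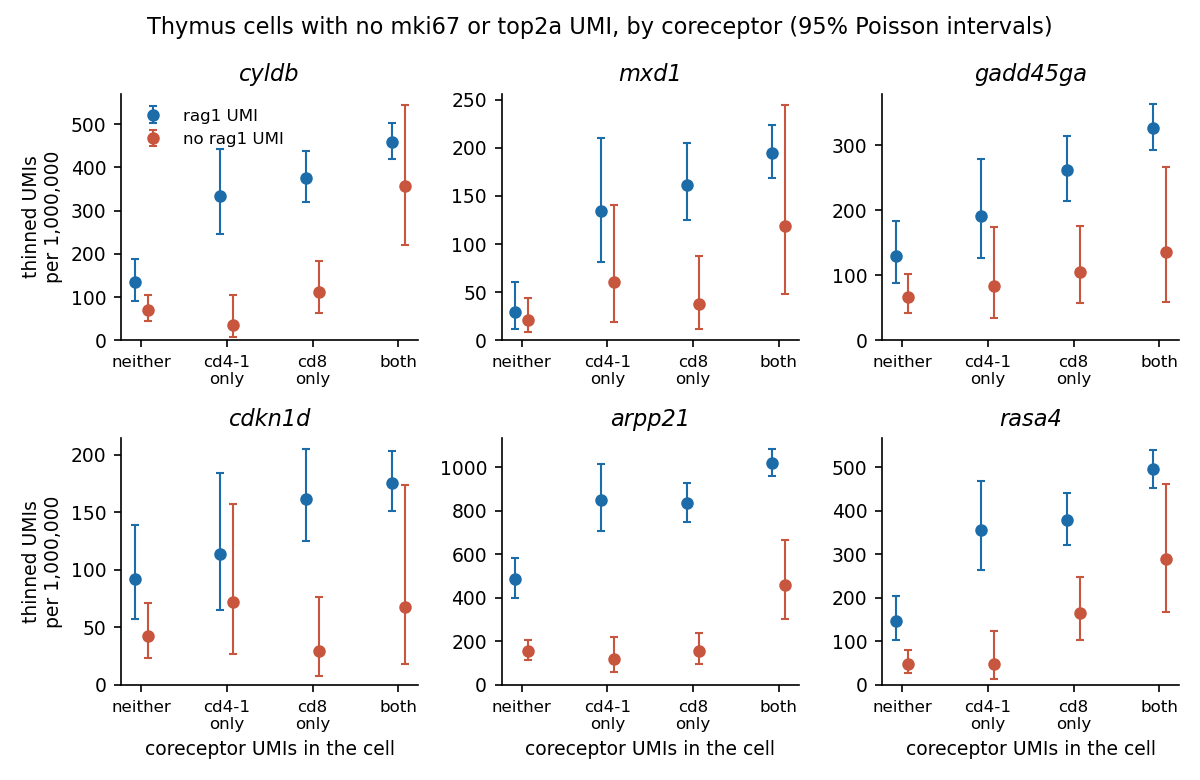
Level of each gene (CPM of thinned UMIs, 95% Poisson intervals) in thymus cells without mki67 or top2a UMIs, by coreceptor UMIs, for cells with a rag1 UMI (blue) and with none (red). Blue points are lowest in cells with neither coreceptor, for mxd1 29.3 CPM against 194 in cells with both.

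Within cells with both coreceptors the fall with division was seen again: arpp21 was at 989 CPM in 1077 cells with no mki67 or top2a UMI and 567 in 67 cells with 3 or more, a ratio of 1.74 (1.26 to 2.48). The ratio was 2.17 for cyldb (1.28 to 4.004), 1.92 for gadd45ga (1.06 to 3.89), 1.91 for rasa4 (1.18 to 3.298), 2.85 for cdkn1d (1.09 to 10.6) and 4.25 for mxd1 (1.43 to 20.8). Only 3 to 4 UMIs of mxd1 and cdkn1d lay in the dividing double-positive cells. The median depth again differed, at 1448 and 4177 UMIs. The rag1-positive cells without mki67 or top2a UMIs, 56.3% of the thinned cells, held between 75.0% of the thinned UMIs of arpp21 and 79.8% of those of mxd1. Cells with both coreceptors, 40.0% of the thinned cells, held between 58.1% and 63.9% of the UMIs of each gene. The share in rag1-positive, non-dividing cells follows from how the genes were chosen. Coreceptors were not used in that choice, but rag1 was, and cells with both coreceptors held 62.7% of the thinned rag1 UMIs. The share in cells with both coreceptors is therefore not independent of the choice either. As to the word resting in the label, the gap to dividing cells was not resolved among the cells of 4000 or more UMIs when S phase cells were left in.

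Single cells rarely showed many of the genes at this depth. Of the thinned thymus cells 33.2% held a UMI of none, 28.8% of 1, 22.3% of 2 and 15.7% of 3 or more, and 1 cell held all 6. At least 3 of the genes were seen in 18.2% of cells with no mki67 or top2a UMI and in 2.52% of cells with 3 or more, in 20.2% of rag1-positive and 2.13% of rag1-negative cells, and in 26.4% of cells with both coreceptors against 2.17% with neither. No marrow or scale cell held 3. Over all thymus cells each of the 15 pairs was seen together more often than the product of its shares, by 1.23 to 1.75 times, the highest being gadd45ga with cdkn1d (96 cells against 55.0). Within rag1-positive cells without mki67 or top2a UMIs these values shrank to between 0.987 and 1.39, with gadd45ga and cdkn1d again the highest. In the 604 rag1-negative cells without those UMIs they lay between 0.973 and 3.58, with a median of 1.86, the highest being cyldb with rasa4 at 16 cells against 4.47, and every pair there rests on 19 cells or fewer. Spearman correlations over the 3230 cells, which share 1 library and 1 depth, lay between 0.0533 and 0.186, too weak in counts this sparse to be read.

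The relatives of the 6 genes followed them in part. Among the CDK inhibitors, the p27 genes cdkn1bb (202 CPM in thymus, 132 in marrow) and cdkn1ba (64.5 and 22.3) were higher with rag1, by 2.54 and 3.45, and higher without mki67 and top2a UMIs, by 2.34 and 1.69. The phosphatase gene cdkn3, listed with them by name, went the other way with division, at 149 CPM in cells with no mki67 or top2a UMI and 549 with 3 or more. Of the 3 CDK inhibitors compared besides cdkn1d, 3 were called higher with rag1, where 6.08% of all genes were, and by division 1 was called higher and 1 lower, where 9.13% and 8.74% of all genes were. In the MYC and MAX network mxd3, a relative of mxd1, was the reverse of it by division, at 25.6 CPM without and 221 with mki67 and top2a, and max, the shared partner, was at 156 and 69.4. The MYC gene mycb was lower in cells with both coreceptors than with neither, at 28.7 and 117 CPM. By division it was nearly even, at 54.1 CPM without and 50.5 with mki67 and top2a. The MYC gene mych, named here beside mycb and not by the rule for named genes, went the other way. It was at 119 CPM with both coreceptors and 82.1 with neither, and its ratio was 2.66 by division and 1.70 with rag1. Of 5 network genes besides mxd1, 1 was called higher and 1 lower by division, against the same shares of all genes.

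The GADD45 gene gadd45ba followed gadd45ga in thymus, with 246 CPM without and 78.9 with mki67 and top2a, a ratio of 3.12 (2.096 to 4.87), and a ratio of 2.20 with rag1. Across tissues it was more even, at 156 CPM in thymus and 118 in marrow. The sister gene of cyldb, cylda, named here because it is the paralogue and not by the rule for named genes, was at 17.7 CPM in thymus, 27.1 in marrow and 32.1 in scale, so the tissue pattern of cyldb was not shared. Of 7 other NF-kB brakes compared between thymus and marrow, 0 were called higher and 3 lower, where 25.9% of all genes were called higher and 6.95% lower. The inhibitor gene nfkbiab was at 125 CPM in thymus and 322 in marrow, and tnip1 at 123 and 295. By division tnip1 resembled cyldb, with a ratio of 3.11, and nfkbie had a ratio of 2.02, but nfkbie was lower with rag1 (0.494). Of 4 other Ras GTPase activator genes compared with marrow, 0 were called higher and 1 lower, against the same 25.9% and 6.95% of all genes, and rasal3 was at 126 and 175 CPM. The genes arpp19b and arpp19a were listed with arpp21 by name and are not read as its relatives. Of these, arpp19b was at 92.7 CPM in thymus and 41.1 in marrow. It was lower without mki67 and top2a UMIs, with a ratio of 0.366. From the same list, r3hdm1 and arpp19a were at 28.2 and 28.1 CPM in thymus and 32.9 and 12.2 in marrow. Their division ratios were 1.68 (0.737 to 4.72) and 7.33 (1.26 to 294), on only 97 and 70 thinned thymus UMIs.

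**Figure D5:**
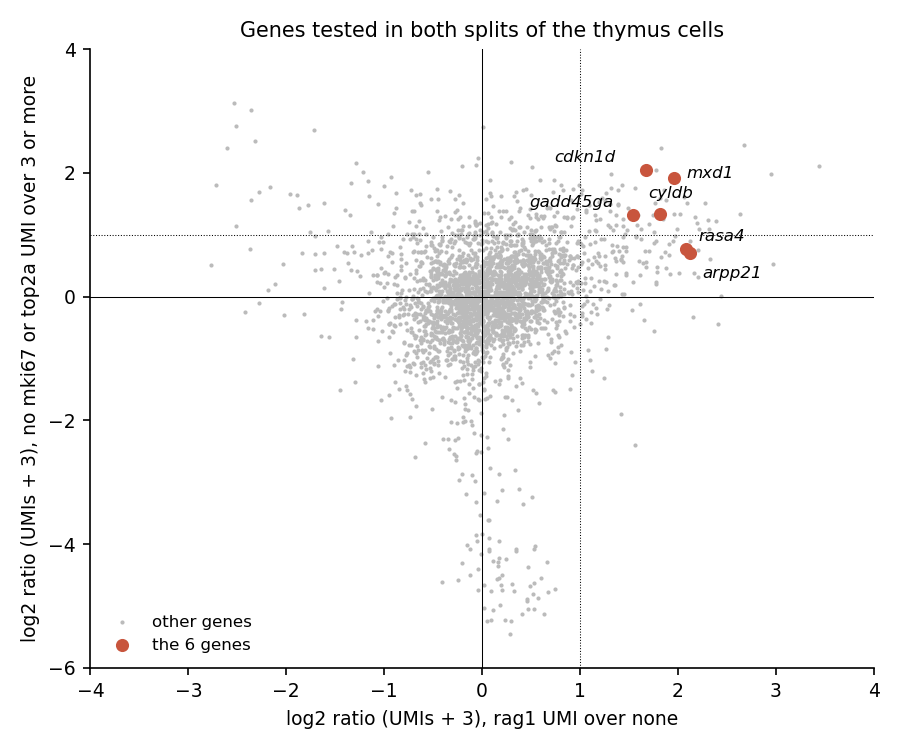
Log2 ratio of CPM computed on UMIs plus 3 for 2837 genes compared in both splits of the thymus cells, with rag1-positive over rag1-negative cells on the x axis and cells without mki67 or top2a UMIs over cells with 3 or more on the y axis; dotted lines mark 2-fold, and 6 genes lie outside the axes. All 6 described genes lie right of 2-fold on the x axis, and arpp21 and rasa4 lie below it on the y axis.

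Genes with the most similar pattern were sought over 18 groups of at least 50 cells, 15 from thymus, 2 from marrow and 1 from scale, formed by library, rag1, division and coreceptors. Pearson's r of log2 (CPM plus 20) is given as a description, since groups share libraries and depth. Among 1527 genes, the sum of the 6 was most similar to grap2b (0.986), si:ch211-106j24.1 (0.985), si:dkey-217l24.1 (0.976), fam117aa (0.974) and polm (0.971), followed by ascc1, nap1l1, marcksl1a, zgc:171686 and ccdc50. The nearest gene to cyldb was rasa4 (0.968), the nearest to mxd1 was eif1b (0.970), and the nearest to gadd45ga was hipk2 (0.947). The nearest to cdkn1d was dag1 (0.917), with gadd45ga in place 3 (0.913). The nearest to arpp21 was si:dkey-217l24.1 (0.976), and to rasa4 it was si:ch211-106j24.1 (0.986). Among themselves, cyldb, rasa4 and arpp21 correlated between 0.923 and 0.968 and cdkn1d, gadd45ga and mxd1 between 0.866 and 0.913, while arpp21 and cdkn1d were least alike (0.610). These were not separate sets, as cyldb correlated with mxd1 at 0.889 and with gadd45ga at 0.865. For arpp21, cdkn1d ranked only as number 406 from the nearest. The groups were formed in part by library, rag1 and division, which served to choose the genes. High values among the 6 therefore describe the choice.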

How the data were processed

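Droplet single-cell RNA-seq libraries of thymus, kidney marrow and scale were analysed, 1 library per tissue, so that no comparison has a replicate. The values are UMI counts per gene and barcode as deposited by the authors. The submitters' processing notes name Cell Ranger 6.0.0, Seurat 4.3.0 and GRCz11, while per the file headers the software version was 6.0.0 for thymus and scale and 4 for marrow; the effect of that difference was not tested. Cells needed 500 UMIs, 250 genes and at most 10% mitochondrial UMIs, and marrow barcodes, deposited unfiltered, at least 1395 UMIs (the percentile 99 of the 3000 largest barcodes divided by 10). Scrublet, run in scanpy 1.11.5, called 0 doublets in thymus and marrow and 16 in scale, which were removed; doublets are therefore not controlled in the first 2 libraries. Median depth was 1370 UMIs per thymus cell, 4044 per marrow cell and 3178 per scale cell. Cells were thinned to 1000 UMIs for the comparisons between thymus cell classes, which left out 1344 thymus and 36 scale cells. Levels by erythroid or neutrophil gate, by coreceptor in marrow and scale, and those named as unthinned are from cells before thinning. Work was done in Python 3.11.15 with numpy 2.4.6, scipy 1.17.1 and matplotlib 3.10.9.

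Levels are CPM (UMIs per 1000000 UMIs) with exact Poisson intervals, shares have Clopper-Pearson intervals and ratios exact conditional binomial intervals, all at 95% and for counting error only. A count of 0 was bounded by 3 counts. For all genes a call is a ratio of at least 2 with 3 UMIs added to each side, among genes with 200 UMIs in the 2 libraries or 100 thinned UMIs in the classes. The calculations were tested on simulated data. The 6 genes and the gene lists were chosen with earlier results of these data known. Named relatives are at most 3 of each listed family with the highest thymus level, and similar genes are the 5 nearest per gene and the 10 nearest to the sum. Alternatives changed the thinning depth, seed, added count, minimum, scaling, class limits and cell filters. Promoter and protein sequences were not used here.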

Additional observations from a re-analysis of the deposited data

Results flagged for a closer look

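Barcodes that the cell filters left out still held UMIs of the 6 genes. The 139 thymus barcodes left out, with a median of 643 UMIs, gave 70.19 CPM of cyldb, 54.59 of mxd1, 70.19 of gadd45ga, 288.6 of arpp21 and 319.8 of rasa4. The 212 marrow barcodes left out gave 35.31 CPM of gadd45ga, and the 79 scale barcodes left out gave 38.62 CPM of gadd45ga and 38.62 CPM of arpp21. They stood out because each exceeds what 0 counts would allow in its barcodes, which entered no comparison.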

How the results depend on the processing

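No paired analysis was possible because each tissue gave 1 library. Of 366 recomputed values of 30 results under 21 settings, 303 stayed within counting error or within 1.5 times the count, 60 moved and 3 turned direction. The 3 that turned are the ratios of cells without mki67 or top2a UMIs over cells with 3 or more, in cells of 4000 or more UMIs, at 0.784 for cyldb, 0.940 for arpp21 and 1.00 for rasa4. That split and its counterpart were chosen after seeing the data. In cells of 4000 or more UMIs the number of the 6 genes called was 0 by division, 2 by rag1 and 1 by coreceptors, and 18, 41 and 54 genes were called in all; in shallower cells 1 of the 6 and 61 genes were called by division and 156 genes by coreceptors. Fewer cells leave fewer genes over the minimum of 100 UMIs. Of the 6 genes in cells of 4000 or more UMIs, only arpp21 reached that minimum by division and by coreceptors. By rag1 only arpp21 and rasa4 reached it. The genes that reached it were called by rag1 and by coreceptors, while arpp21 was not called by division. The rest of the 6 could not be called there, so their absence from these counts does not show that their gaps were lost. In the shallower cells, by contrast, all 6 genes reached that minimum by division. Those not called in the shallower cells were compared and fell short of 2-fold on UMIs plus 3. The counts in this paragraph are not shares of the genes compared, and nothing is read from them about the 6 genes. With rag2 in place of rag1, 0 of the 6 and 25 genes were called. Most cells without a rag2 UMI held a rag1 UMI, so this count cannot show whether the genes follow rag2. Thinning to 500 UMIs gave 90 genes by division, 102 by rag1 and 98 by coreceptors, and no thinning gave 917 by division and 508 by coreceptors. With 10 UMIs added 70 were called by division. Between thymus and marrow 1005 genes were called with median-of-ratios size factors, 747 with each cell weighing the same and 2914 with no minimum, and 478 were called between thymus and scale with each cell weighing the same. With no minimum 353 genes were called by rag1 and 835 by coreceptors. Apart from the subsets of cells, the cause of these moves was not tested. Depth limits the division ratios of cdkn1d and mxd1, which had 7 and 8 thinned UMIs in dividing cells, and the ratio of cyldb ranged from 0.784 to 7.28 over the settings.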
